A study of Sus scrofa with 6 samples.

Results

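The comparison is between 2 single-cell RNA libraries of irradiated, deferoxamine-treated skin, the library labelled chronic and the library labelled acute, called here the chronic and the acute library. Cells were taken by the same limits in both, at least 500 UMIs (molecules counted by their barcode) of gene RNA, at least 300 genes and at most 20% of UMIs from mitochondrially encoded (mt-) genes. The limits left 9180 cells in the chronic library and 24132 in the acute one, 33312 of the 83559 cells that pass them in all 6 libraries of the study. After removal of likely doublets, 8466 and 19296 cells were kept and sorted into cell classes. Each label has 1 library. Values are therefore sums of UMIs and shares of cells with 95% intervals that cover counting error only, with no test, and a difference between the labels cannot be told apart from one between animals, biopsies or library preparations.

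The study profiled unsorted cells from skin of red duroc pigs after radiation, with and without DFO (deferoxamine, an iron chelator) given by a patch that the labels name DFO TDDS Patch. The label of the chronic library gives a 1 mg patch and a time 4 weeks after the recovery of radiation, and that of the acute library a 1 mg patch and 12 weeks of recovery after it. The other 4 libraries are labelled pretreatment (1 mg patch, 2 weeks before radiotherapy), continuous (1 mg patch, 18 weeks), irradiated skin and normal skin, and serve here only to show where the pair lies. The labels give no number of animals, no age, no sex, no radiation dose and no biopsy site. The labels name the pig as the organism, while the gene rows of all 6 libraries are the 32285 genes of a mouse annotation, and the series title names an anti-JUN drug and surgical adhesions. Genes are therefore given by mouse symbols as deposited, and the libraries by their labels.

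Both libraries hold leukocytes beside skin cells. T cells recognise antigen through a receptor with either alpha and beta or gamma and delta chains, and in skin they include helper, cytotoxic, regulatory and interleukin-17-producing gamma-delta cells. Dendritic cells carry antigen from the skin to lymph nodes, neutrophils are short-lived granule-bearing phagocytes recruited into injured tissue, and natural killer (NK) cells kill stressed cells without a rearranged receptor. Iron chelation by deferoxamine stabilises hypoxia-inducible factor, whose targets include Vegfa, a growth factor for blood vessels.

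The chronic library had 9721 barcodes with 37470412 gene UMIs, and the acute library had 25052 barcodes with 49408533. The median cell held 2610 UMIs in the chronic and 1339 in the acute library, so genes are compared as CPM, their UMIs scaled to one fixed total for every class sum, and shares of cells with a UMI are given after every cell was thinned to 500 UMIs. The libraries shared 66 barcodes. Markers of skin were present in both, the keratinocyte list at 2668 and 1426 CPM and the fibroblast list at 5869 and 14757 CPM of the whole chronic and acute library. Each library also had 4 rows of anti-mouse hashtag antibodies, which were left out of all gene totals. The hashtag counts did not split cells into marked and unmarked ones, and by a 2-fold excess 2253 chronic cells (24.5%) and 1057 acute cells (4.38%) carried exactly 1 hashtag. No source says what a hashtag marks, so sets of cells with 1 hashtag are used below only to show how far a value spreads inside a library.

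T cell-like cells made up a larger part of the chronic library. They were 1761 cells or 20.8% (exact interval 19.9 to 21.7) of the chronic library and 2095 cells or 10.9% (10.4 to 11.3) of the acute library, a difference of 9.94 percentage points (8.97 to 10.9). The other 4 libraries held between 7.58% and 13.5%, so the chronic library lay above all 5 others and the acute library among them. In the chronic library the share was 10.8% with hashtag 7, 5.56% with hashtag 8, 36.6% with hashtag 9 and 25.1% with hashtag 10. The sets of the chronic library thus spread more widely than the difference between the labels. Over 3 hashtags of the acute library the share was 4.81% to 7.59%, with few T cell-like cells in each set. All 3 acute sets lay below the 10.9% of the whole acute library, so they do not show the spread of the share inside it. The median T cell-like cell held 2007 UMIs in the chronic and 806 in the acute library, and among cells of at least 1000 UMIs and at most 10% mt- UMIs the shares were 20.7% and 5.01%.

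NK cell-like cells were 48 (0.567%, 0.418 to 0.751) in the chronic and 74 (0.384%, 0.301 to 0.481) in the acute library, a difference of 0.183 points (0.00559 to 0.385). Dendritic cell-like cells were 197 (2.33%, 2.02 to 2.67) and 382 (1.98%, 1.79 to 2.19), and the difference of 0.347 points had an interval that holds 0 (-0.0257 to 0.741). Neutrophil-like cells were 2235 (26.4%, 25.5 to 27.4) and 5043 (26.1%, 25.5 to 26.8), a difference of 0.265 points that also holds 0 in its interval (-0.862 to 1.40). The order of the dendritic shares turned with stricter limits on depth and that of the neutrophil shares without doublet removal, so neither share is read as higher in a library. Macrophage or monocyte-like cells were 31.1% of the chronic and 34.4% of the acute library.

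Outside the leukocytes, fibroblast-like cells, which make collagen, were 299 (3.53%) in the chronic and 1519 (7.87%) in the acute library. Keratinocyte-like cells, the cells of the epidermis, were 373 (4.41%) and 307 (1.59%). Endothelial-like cells, which line vessels, were 147 (1.74%) and 431 (2.23%). The fibroblast share was thus lower and the keratinocyte share higher in the chronic library, by more than their counting intervals. Shares sum to the whole library, so a larger part for T cells and smaller parts for other classes are not separate facts, and cells lost or gained in the digestion were not measured.

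**Figure D1:**
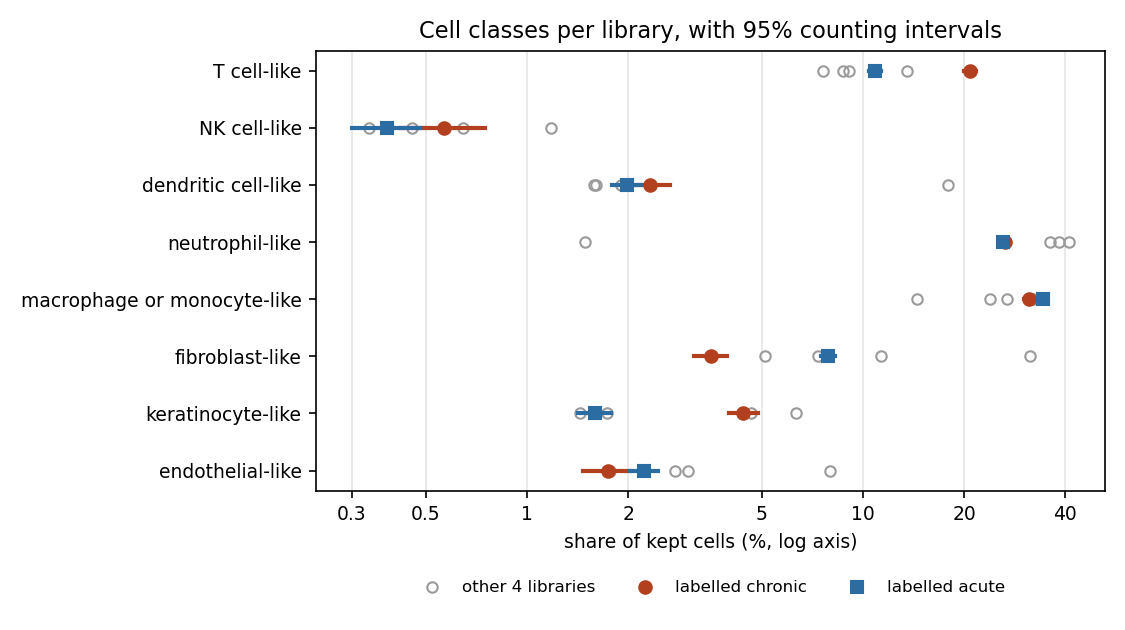
Share of kept cells (percent, log axis) in 8 cell classes. Filled circles are the chronic and squares the acute library with 95% exact counting intervals, and open circles are the other 4 libraries. T cell-like cells at 20.8% and 10.9% stand apart by far more than their intervals, and the intervals of neutrophil-like cells at 26.4% and 26.1% overlap.

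The classes carried most of their markers in both libraries. The 21 T cell markers summed to 8245 CPM in the T cell-like class of the chronic library and 7200 of the acute one, against 220 and 187 in all other cells. The 16 neutrophil markers summed to 160910 and 113760 CPM in the neutrophil-like class, against 3272 and 3689 in all other cells. The 12 markers of type 2 conventional dendritic cells summed to 21189 and 18525 CPM in the dendritic class, against 5343 and 3345 elsewhere, with 10 of 12 higher in the class. All 12 markers of migratory dendritic cells were higher in the class than elsewhere in both libraries, but only 3 of 6 Langerhans cell markers were. Fibroblast RNA was more abundant in the leukocyte classes of the acute library, and neutrophil RNA in its T cell-like class. In T cell-like cells the 12 fibroblast markers summed to 204 CPM in the chronic and 1211 in the acute library, and the 16 neutrophil markers to 849 and 2112, with none of either list at 0. In neutrophil-like cells the fibroblast markers summed to 201 and 1298 CPM, in dendritic cell-like cells to 70.9 (3 of 12 at 0) and 655, and in macrophage or monocyte-like cells to 136 and 756. Col1a1, a collagen gene, reached 0.331% of its fibroblast level in chronic T cell-like cells and 2.40% in acute ones. Free RNA can give such counts, and its part in the gene results below was not tested directly. Lists are therefore counted both over all measured members and over members that a class holds at 25% or more of the level of the class where they are highest.

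In T cell-like cells the chronic library had higher levels of most measured cytotoxic genes and lower levels of most measured immediate early and NF-kB inflammatory genes. Among the immediate early and NF-kB inflammatory genes that T cells themselves hold, counted below, the lower ones were not a majority. Of 7993 genes with at least 50 UMIs over both sums, 541 (6.77%) were at least 1.5-fold higher and 1224 (15.3%) at least 1.5-fold lower in the chronic library, with a median log2 ratio over all genes of -0.13. When the ratios were scaled to a median of 0, the counts were 830 and 866, so the excess of lower genes depends on the scaling.

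Cd7, a co-receptor of T and NK cells, had the highest ratio among the T cell genes named by rule, at 69.2 CPM in the chronic and 17.2 in the acute library, 4.03-fold (2.84 to 5.87). The other 4 libraries held it at 28.8 to 90.3 CPM, so here the acute library was the one that stood low. Bcl2a1b, a survival gene of the Bcl2 family, was at 827 and 299 CPM, 2.76-fold (2.54 to 3.01), and lay in the chronic library above the 281 to 529 CPM of the other 4. Its near-identical copy Bcl2a1d was at 226 and 85.9 CPM, 2.63-fold (2.24 to 3.11), and reads may be split between the copies. Cd52, a short surface glycoprotein of lymphocytes, was at 1596 and 624 CPM, 2.56-fold (2.41 to 2.72), with the other libraries at 652 to 1451. The acute library was thus the lowest of all 6 for Cd7 and Cd52, and the chronic library the highest for Bcl2a1b, Bcl2a1d and Cd52. Bcl2a1b was at least 1.5-fold higher in 4 of 6 measured classes and Bcl2a1d in 2 of 4. Cd52 was higher by that bound in 4 of 7 classes and lower in 2.

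Genes of CD8 T cells and killing formed the rest of the upper end. Cd8b1, a chain of the CD8 co-receptor, was at 64.6 CPM in the chronic and 23.9 in the acute library, 2.71-fold (1.99 to 3.74). Nkg7, a protein of cytotoxic granules, was at 181 and 68.3 CPM, 2.66-fold (2.22 to 3.20). Of 16 measured members of the cytotoxic list, 11 were at least 1.5-fold higher and 0 lower, with a median log2 ratio of 0.73 beside -0.13 over all genes. Among them were Ccl5, a T cell chemokine, at 394 and 163 CPM (2.41-fold, 2.14 to 2.72), and Gzmb, which encodes granzyme B, at 626 and 301 CPM (2.08-fold, 1.91 to 2.27). In thinned cells Gzmb was found in 17.7% of chronic and 9.59% of acute T cell-like cells, with 0.228% and 0.166% in macrophage or monocyte-like cells as background (unthinned 33.7% and 14.9%, median depths 2007 and 806 UMIs). Among chronic cells with 1 hashtag, Gzmb was at 1022 CPM with hashtag 7, 430 with hashtag 9 and 414 with hashtag 10, all above the 301 CPM of the acute library. Gzma, another granzyme, was at 145 and 93.5 CPM, and its order turned when each library was clustered alone.

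Ifng, the interferon-gamma gene, was at 109 CPM in the chronic and 108 in the acute library, and 1 acute cell held 65.0% of the acute UMIs. Without the cell with most UMIs in each library the ratio was 2.72. In thinned cells Ifng was found in 3.75% of chronic and 1.29% of acute T cell-like cells, so the equal CPM rests on that 1 cell.

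At the lower end, Junb, a subunit of the AP-1 transcription factor, was at 1545 CPM in the chronic and 3765 in the acute library, 2.44-fold higher in the acute one (2.36 to 2.52). The irradiated library, at 3461 CPM, lay near the acute one, and the normal, continuous and pretreatment libraries, at 1502 to 1882 CPM, near the chronic one. Csrnp1, a nuclear factor induced by growth signals, was at 120 and 295 CPM (2.47-fold higher in the acute library, 2.19 to 2.78). Dck, the kinase that salvages deoxycytidine, was at 27.5 and 77.3 CPM (2.81-fold, 2.19 to 3.60). Palld, an actin-binding protein, was at 62.9 and 174 CPM (2.76-fold, 2.35 to 3.25), above the 10.2 to 52.9 CPM of the other 4 libraries. Penk, which encodes enkephalin precursors, was at 54.8 and 133 CPM (2.43-fold, 2.03 to 2.91), and Ccdc71l at 28.0 and 69.2 CPM. Being lower by more than counting error was a condition for naming these genes and is no further result. Csrnp1 and Ccdc71l were at least 1.5-fold lower in 6 of the 7 classes with gene counts, and Junb in 4. Dck was lower by that bound in 4 of 6 measured classes, Palld in 3 of 6 and Penk in 2 of 3. None of these was thus a difference of T cells alone.

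**Figure D2:**
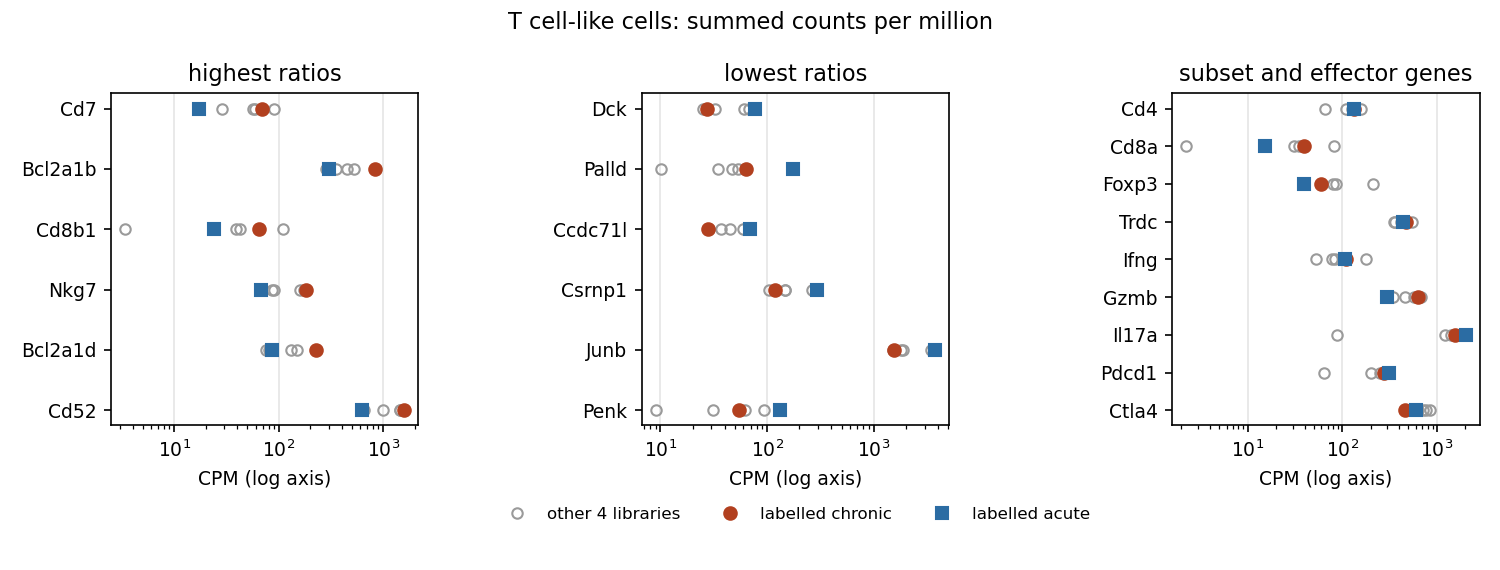
Level in T cell-like cells (CPM, log axis) of the genes with the highest ratios, the lowest ratios and of subset and effector genes. Filled circles are the chronic library, squares the acute library and open circles the other 4. Cd7 at 69.2 and 17.2 and Junb at 1545 and 3765 CPM lie apart, and Cd4 at 133 and 134 CPM coincides.

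Immediate early genes, which respond to signals and to tissue handling within minutes, were lower as a list. Of 28 members, 0 were higher and 19 lower in the chronic library, with a median log2 ratio of -0.70, and of the 12 that T cells hold at 25% or more of the highest class, 0 were higher and 6 lower. Klf4, a transcription factor of this list, was at 112 and 272 CPM. Of 37 NF-kB inflammatory genes, 0 were higher and 28 lower, with a median of -1.25, and of the 14 that T cells themselves hold, 0 were higher and 6 lower, with a median of -0.55. Nfkbia and Tnfaip3, inhibitors that NF-kB induces against itself, were at 1000 and 1775 CPM and at 929 and 1573 CPM. The remaining lower members are genes that T cells hold at under 25% of the level of another class. Of 17 heat shock genes, 4 were higher and 0 lower (median 0.32), among them Hspe1, a mitochondrial chaperonin, at 456 and 210 CPM and the ubiquitin gene Ubb at 1352 and 680 CPM. The time from biopsy to lysis is not given for either library, and its part in these lists was not tested.

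Genes of the interleukin-17 axis were compared next. Il17a was at 1566 CPM in the chronic and 2021 in the acute library, 1.29-fold higher in the acute one (1.24 to 1.34) and below the 1.5-fold bound. In thinned cells 27.1% of chronic and 37.0% of acute T cell-like cells had an Il17a UMI, against 0.190% and 0.316% of macrophage or monocyte-like cells. Over hashtags of the chronic library Il17a ranged from 677 to 2154 CPM, a spread wider than the difference between the labels. Of 15 genes of the interleukin-17 axis, 1 was higher and 2 lower in the chronic library, with a median log2 ratio of -0.22, shares close to the 6.77% and 15.3% over all genes of the class. Cd163l1, a scavenger receptor of gamma-delta T cells, was at 260 and 343 CPM.

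Lineage and checkpoint genes were also compared. Cd4 was at 133 and 134 CPM (ratio 0.998, 0.862 to 1.16) and Trdc, the constant region of the delta chain, at 471 and 441 CPM (1.07, 0.986 to 1.16). Cd8a was at 39.5 and 15.3 CPM (2.59-fold, 1.76 to 3.91), and Foxp3, the factor of regulatory T cells, at 59.2 and 39.6 CPM (1.5-fold, 1.16 to 1.94). Pdcd1, which encodes PD-1, was at 278 and 311 CPM (0.895, 0.812 to 0.987), and Ctla4, another inhibitory receptor, at 466 and 606 CPM (1.30-fold higher in the acute library, 1.21 to 1.40). The Cd4 and Trdc levels thus differed by no more than counting error, while Cd8a was higher in the chronic library. Of 16 immune checkpoint genes 0 were higher and 3 lower, and of the 11 held by T cells themselves 0 were past the bound in either direction.

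Subsets inside the class were named by fixed cut-offs on the summed CPM of Foxp3, Cd8a, Trdc and Cd4 in each cluster. Cd8a-led cells were 184 of the chronic (10.4% of the class) and 102 of the acute library (4.87%), Trdc-led cells 405 (23%) and 858 (41.0%), Cd4-led cells 508 (28.8%) and 652 (31.1%) and Foxp3-led cells 162 (9.20%) and 154 (7.35%). The remaining 502 and 329 cells lay in clusters that met none of these cut-offs. Among them, a cluster of 230 chronic and 29 acute cells shared leading genes such as Zbtb16 and Blk with the Trdc-led clusters. Since levels of genes behind the cut-offs also differ between the libraries, these numbers describe the clusters and are not read as a change in makeup. Trdc-led and Cd4-led cells came from separate clusters in each library. The first Trdc-led cluster held 376 chronic and 100 acute cells and the other 29 and 758, and the Cd4-led clusters held 466 and 60 and 42 and 592.

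The differences in Junb, Cd52, Bcl2a1b, Hspe1 and Ubb pointed the same way in all 4 named subsets. Junb was at 1290 and 4012 CPM in Cd4-led, 2022 and 4573 in Trdc-led, 1271 and 2674 in Foxp3-led and 1009 and 1844 in Cd8a-led cells, in each lower in the chronic library. The ratio of Cd52 lay between 2.06 and 2.76 and that of Bcl2a1b between 1.64 and 2.98. The ratio of Hspe1 lay between 1.6 and 3.02 and that of Ubb between 1.71 and 2.43.

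Other genes differed by subset. Gzmb was at 137 CPM in chronic and 58.7 in acute Cd4-led cells, 2.33-fold (1.6 to 3.48), at 863 CPM in chronic and 322 in acute Trdc-led cells, 2.68-fold (2.31 to 3.12), and at 1196 and 850 CPM in Foxp3-led cells, 1.41-fold (1.14 to 1.75). In Cd8a-led cells it was at 994 and 1012 CPM, a ratio of 0.982 (0.804 to 1.21), within counting error. Gzmb in the T cell-like cells outside the 4 named subsets is not given here. Il17a was 1.12-fold higher in chronic Trdc-led cells (3286 and 2921 CPM, 1.06 to 1.19) and 1.45-fold higher in acute Cd4-led cells (1462 and 2113 CPM, 1.34 to 1.56), and Cd8a-led cells held only 2 chronic and 6 acute UMIs of it. Ctla4 was at 537 and 853 CPM in Cd4-led and 1329 and 1531 CPM in Foxp3-led cells. Trdc itself was at 1869 and 1042 CPM in Trdc-led cells, 1.79-fold (1.64 to 1.96), though it was level over the whole class. Trdc was among the genes that named this subset, and the libraries filled its clusters unequally, so no order of Trdc is read.

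**Figure D3:**
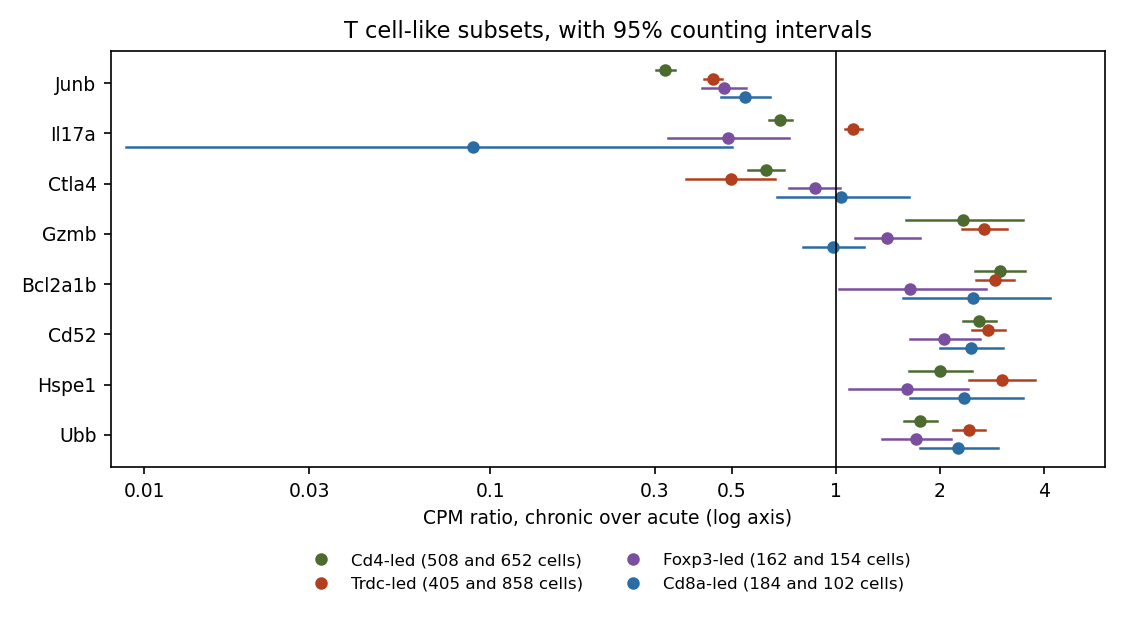
Ratio of CPM, chronic over acute (log axis), of 8 genes in the 4 named T cell-like subsets. Points are ratios, lines 95% counting intervals, and the legend gives the cells of the chronic and the acute library. Junb lies below 1 in all 4 subsets and Gzmb at 2.68 in Trdc-led and 0.982 in Cd8a-led cells.

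The NK cell-like class was too small for counts of genes, with 48 chronic and 74 acute cells, and its values rest on few UMIs. Its 14 markers summed to 7055 CPM in the chronic and 7689 in the acute library, against 79.4 and 32.2 in all other cells, with none at 0. Gzmb was at 852 and 951 CPM (ratio 0.896, 0.686 to 1.17) and Ifng at 422 and 541 CPM (0.781, 0.538 to 1.13), both within counting error. Granzyme C, encoded by Gzmc and made by strongly activated killer cells, differed more, with 17 UMIs (120 CPM) in the chronic and 100 UMIs (873 CPM) in the acute library. Its neighbours Gzmd and Gzmf had 0 UMIs in the chronic library and 22 and 36 in the acute one. Ccl5 was at 3781 and 925 CPM, 4.09-fold higher in the chronic library (3.31 to 5.08), and Xcl1, a chemokine that attracts dendritic cells, at 725 and 384 CPM (1.89-fold, 1.31 to 2.75). Among these genes only Gzmb and Ifng were set by rule, and the others were chosen after their values were seen. S100a8, a neutrophil gene, was at 2711 and 611 CPM in the class, so neutrophil RNA was higher in the chronic NK cell-like cells, and its part in the other values was not tested.

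Dendritic cell-like cells of the chronic library had higher levels of the chemokines Cxcl9 and Ccl17 and lower levels of most measured NF-kB inflammatory and immediate early genes. Of 4708 genes measured in the class, 384 (8.16%) were at least 1.5-fold higher and 854 (18.1%) at least 1.5-fold lower in the chronic library, with a median log2 ratio of -0.15. Scaled to a median of 0, the counts were 632 and 517, so the balance of directions depends on the scaling.

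Cxcl9, a chemokine that interferon-gamma induces and that attracts activated T cells, was at 146 CPM in the chronic and 14.3 in the acute library, 10.2-fold (5.80 to 19.6). The acute library was the lowest of the 6, since the other 4 held 36.8 to 129 CPM. In thinned cells 4.06% (1.77 to 7.85) of chronic and 0.262% (0.00663 to 1.45) of acute dendritic cell-like cells had Cxcl9. The shares were 0.511% and 0.334% in T cell-like cells, so the acute share lay at background, and 7.32% and 1.63% in macrophage or monocyte-like cells. The 16 macrophage markers summed to 3817 and 4203 CPM in dendritic cell-like and 15647 and 14120 CPM in macrophage or monocyte-like cells. The part of macrophage RNA in the Cxcl9 ratio was not tested. Ccl17, a chemokine of dendritic cells, was at 446 and 72.7 CPM, 6.13-fold (4.73 to 8.04), and 5.70-fold without the cell with most UMIs in each library. In thinned cells Ccl17 was found in 9.65% (5.91 to 14.7) of chronic and 2.09% (0.908 to 4.09) of acute dendritic cell-like cells, with at most 0.0568% in T cell-like cells. Over the other libraries it ranged from 43.2 to 454 CPM, so both values lie within that range.

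Epcam, an adhesion molecule of Langerhans cells, was at 114 and 28.6 CPM (3.99-fold, 2.60 to 6.34). Blvrb, a biliverdin reductase of haem breakdown, was at 102 and 35.3 CPM (2.89-fold, 1.94 to 4.42), and Ltc4s, which makes leukotriene C4, at 70.0 and 24.2 CPM (2.89-fold, 1.78 to 4.86). Retnla, a gene of alternative activation, was at 92.1 and 9.92 CPM, but 89.4% of the chronic UMIs lay in 1 cell. An interval that leaves out 1 was a condition for naming these genes and is no further result. Retnla describes 1 cell.

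Lower in the chronic library were Il10, an anti-inflammatory cytokine, at 31.9 and 201 CPM (6.29-fold higher in the acute library, 4.38 to 9.26) and Tnfsf9, the ligand of 4-1BB, at 95.7 and 444 CPM (4.64-fold, 3.75 to 5.79). Prdm1, a transcriptional repressor, was at 25.7 and 111 CPM (4.33-fold, 2.84 to 6.79). Cxcl1, which attracts neutrophils, was at 302 and 1193 CPM (3.95-fold, 3.49 to 4.48). Gpnmb, a gene of lipid-laden macrophages, was at 14.2 and 147 CPM, and the platelet factor Pf4 at 75.3 and 412 CPM. Single cells held 63.2% of the acute Gpnmb UMIs and 34.2% of the acute Pf4 UMIs, and 50% of the chronic Il10 UMIs. Leaving out the top cells gave ratios of 0.211 for Gpnmb, 0.229 for Pf4 and 0.0900 for Il10, so all 3 remained lower in the chronic library. In thinned cells, however, Il10 was found in 1.02% of chronic and 5.50% of acute dendritic cell-like cells against 1.48% and 6.68% of T cell-like cells, so its level in the class is read as background.

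Maturation genes did not move together. Of 21 members, 3 were higher and 9 lower in the chronic library, with a median log2 ratio of -0.40. Fscn1, the actin-bundling protein of mature dendritic cells, was at 442 and 282 CPM (1.57-fold, 1.34 to 1.83), and Ccl22, a chemokine for regulatory T cells, at 988 and 614 CPM (1.61-fold, 1.45 to 1.78). Ccr7, the receptor that guides dendritic cells to lymph nodes, was at 876 and 1359 CPM, 1.55-fold higher in the acute library (1.43 to 1.69). Cd83, a surface marker of activation, was at 274 and 706 CPM (2.58-fold higher in the acute library, 2.25 to 2.97), and Birc3, an NF-kB target, at 89.5 and 241 CPM. Fscn1, Ccl17 and Ccl22 were thus higher and Ccr7, Cd83 and Birc3 lower in the chronic library. Ccl17 and Ccl22 also led a dendritic cluster outside the Fscn1-led one, of 142 chronic and 295 acute cells. They do not mark migratory cells alone here. Fscn1-led cells were 46 of 197 chronic and 75 of 382 acute cells, too few to compare alone.

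Few antigen presentation genes were past the 1.5-fold bound. Of 13 MHC class II genes, 3 were higher and 1 lower (median log2 ratio 0.26), beside 8.16% higher and 18.1% lower over all genes of the class. H2-Ab1, a beta chain of class II, was at 6777 and 5654 CPM (1.2-fold, 1.16 to 1.24), H2-Aa at 6748 and 6316 CPM, and H2-DMa, which loads peptide, at 526 and 329 CPM (1.6-fold, 1.39 to 1.84). Of 17 MHC class I genes, 4 were higher and 0 lower, among them the immunoproteasome subunits Psmb10 at 142 and 62.8 CPM and Psmb8 at 425 and 235 CPM. Cd209a, a lectin of type 2 dendritic cells, was at 73.5 and 69.4 CPM (1.06, 0.754 to 1.49) and Xcr1, a receptor of type 1 dendritic cells, at 10.6 and 12.1 CPM, neither apart by more than counting error.

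The inflammatory lists were lower in dendritic cells as well. Of 31 NF-kB inflammatory genes 0 were higher and 22 lower (median -1.10), and of the 17 held by the class itself 0 were higher and 12 lower. Of 26 immediate early genes 0 were higher and 17 lower (median -0.77), among them the phosphatase gene Dusp2 at 77.9 and 238 CPM. Il1b, which encodes interleukin-1 beta, was at 2615 and 5101 CPM, 1.95-fold higher in the acute library (1.86 to 2.04). Cxcl10, another interferon-induced chemokine, was at 192 and 298 CPM, opposite in direction to Cxcl9. Its order turned when each library was clustered alone.

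Neutrophil-like cells were the largest class beside macrophages. The libraries filled its clusters unequally. A cluster led by Ngp and Ltf held 953 chronic and 1207 acute cells, and one led by Cstdc4 and Stfa2 held 348 and 1928. Another, led by Cstdc4 and Stfa2l1, held 934 and 1908. The part of this filling in the ratios below, such as those of Stfa2, S100a8 and granule genes, was not tested. Of 6736 genes measured, 401 (5.95%) were at least 1.5-fold higher and 1671 (24.8%) at least 1.5-fold lower in the chronic library, with a median log2 ratio of -0.25. Scaled to a median of 0 the counts were 862 and 964. The calprotectin genes S100a8 and S100a9 took 64502 and 74136 CPM of the chronic sum and 43925 and 46343 CPM of the acute sum, and their part in the low median was not tested.

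S100a8 was thus 1.47-fold (1.46 to 1.48) higher in the chronic library. The normal and irradiated libraries held 46673 and 46799 CPM and the continuous library 93990. Over 3 hashtags of the chronic library it ranged from 44042 to 78522 CPM and over 2 of the acute library from 37462 to 46750, so the sets of the libraries overlapped. Ccl3, a chemokine for monocytes, was at 12232 and 10372 CPM (1.18-fold), but the share of thinned cells with Ccl3 was 74.6% and 88.0%, so no order is read. Il1b was at 9865 and 11916 CPM, 1.21-fold higher in the acute library (1.19 to 1.22). Cxcr2, the receptor that draws neutrophils into tissue, was at 463 and 330 CPM (1.40-fold, 1.32 to 1.5), and over hashtags it was 407 to 862 CPM in the chronic and 275 to 277 in the acute library.

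Of 20 neutrophil granule genes, 5 were higher and 0 lower in the chronic library, with a median log2 ratio of 0.36. Camp, a cathelicidin of secondary granules, was at 287 and 117 CPM (2.46-fold, 2.23 to 2.71). It came from 58 chronic and 100 acute cells, and 1 chronic cell held 22.2% of the UMIs. In thinned cells Camp was found in 1.12% of chronic and 1.27% of acute neutrophil-like cells, so the ratio rests on few cells. Over hashtags Camp ranged from 7.85 to 788 CPM in the chronic library and was at 59.3 and 1956 CPM in the acute one, where the set of hashtag 7 lay above every chronic set, so no order is read.

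Other genes at the upper end were Ost4, a subunit of the oligosaccharyl transferase, at 101 and 39.9 CPM (2.54-fold, 2.15 to 3.0), Elob, which encodes elongin B, at 227 and 101 CPM (2.24-fold, 2.01 to 2.49), and the splicing-related Sap18 at 200 and 90.3 CPM (2.21-fold, 1.98 to 2.48). Ccdc12 was at 91.8 and 39.0 CPM and Gadd45g, a stress-response gene, at 189 and 88.9 CPM. Ost4 was at least 1.5-fold higher in the chronic library in all 7 classes with gene counts and Elob and Sap18 in 6, so none of the 3 was a difference of neutrophils alone.

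At the lower end were Itga5, an integrin chain for fibronectin, at 33.2 and 91.0 CPM (2.74-fold higher in the acute library, 2.28 to 3.31), Cd69, an early activation marker, at 49.3 and 135 CPM (2.73-fold, 2.35 to 3.18), and Stfa2, a stefin protease inhibitor, at 229 and 600 CPM (2.62-fold, 2.44 to 2.81). C9orf72, Adam9 and Kbtbd7 were between 18.7 and 21.5 CPM in the chronic and between 50.2 and 58.7 CPM in the acute library. A difference past counting error was a condition for naming these 6 genes and is no further result. Itga5 was at least 1.5-fold lower in 6 of the 7 classes with gene counts and Adam9 in 5. C9orf72 was lower by that bound in 5 of 6 measured classes, Stfa2 in 4 of 4, Cd69 in 3 of 5 and Kbtbd7 in 2 of 4. None of the 6 was thus a difference of neutrophils alone.

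Of 29 neutrophil activation genes, 1 was higher and 7 lower (median -0.19, beside -0.25 over all genes). Tnf, which encodes tumour necrosis factor, was at 1425 and 2559 CPM, 1.80-fold higher in the acute library (1.74 to 1.85), and 35.3% of chronic and 56.0% of acute thinned cells had a UMI of it, against 3.18% and 11.7% of T cell-like cells. Tnfaip3 was at 758 and 1604 CPM and Csf3, the neutrophil growth factor, at 290 and 578 CPM, while Il1a, which encodes interleukin-1 alpha, went the other way at 1003 and 640 CPM (1.57-fold, 1.5 to 1.64). Of 18 trafficking genes 0 were higher and 1 lower, Fpr2, a formyl peptide receptor, at 426 and 765 CPM. Cxcr4, which retains neutrophils in marrow, was at 137 and 205 CPM. Of 35 interferon-stimulated genes 4 were higher, with Ifitm3 at 1592 and 970 CPM, and 6 lower, with Slfn4 at 624 and 1012 CPM. Over all genes of the class 5.95% were higher and 24.8% lower. The activation counts lay near these shares, and no direction is read for the activation or the interferon list.

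Genes of iron handling and hypoxia bear on the treatment both labels name. Of 27 iron genes measured in neutrophil-like cells, 4 were higher and 9 lower, and of the 17 held by the class itself 3 were higher and 4 lower, beside 5.95% higher and 24.8% lower over all genes of the class. Slc40a1, which encodes the iron exporter ferroportin, was at 115 and 61.0 CPM (1.89-fold, 1.64 to 2.17), the ferritin light chain gene Ftl1 at 6533 and 3494 CPM (1.87-fold, 1.84 to 1.90) and the ferritin heavy chain gene Fth1 at 44148 and 36728 CPM (1.2-fold). Among the lower iron genes, Slc11a2 and Pcbp1 had ratios of 0.408 and 0.527 in neutrophil-like cells. Slc25a37 was at least 1.5-fold lower in the chronic library in all 7 classes with gene counts. Tfrc, the transferrin receptor, was at 88.4 and 110 CPM in neutrophil-like, 111 and 160 CPM in T cell-like, 54.0 and 71.6 CPM in dendritic cell-like and 65.1 and 86.4 CPM in macrophage or monocyte-like cells. It was lower in the chronic library in each of these 4, by less than 1.5-fold, and in dendritic cell-like cells the interval of the ratio, 0.523 to 1.09, holds 1.

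Of 37 hypoxia and glycolysis genes in neutrophil-like cells, 4 were higher and 3 lower. Hif1a itself was at 178 and 376 CPM (2.12-fold higher in the acute library, 1.95 to 2.30) and Gapdh, a glycolytic enzyme, at 1398 and 776 CPM (1.80-fold). Vegfa was at 208 and 213 CPM in neutrophil-like, 419 and 443 CPM in macrophage or monocyte-like and 196 and 252 CPM in dendritic cell-like cells. Its highest level of these, in macrophage or monocyte-like cells, differed by a ratio of 0.946 (0.910 to 0.984). Vegfa in T cell-like cells was at 28.8 and 74.9 CPM, levels well under those of the myeloid classes, and the part of free RNA in it was not tested.

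Macrophage or monocyte-like cells, compared for context, had higher MHC class II and interferon-gamma response genes and lower inflammatory cytokines in the chronic library. Of 10138 genes, 660 (6.51%) were at least 1.5-fold higher and 930 (9.17%) lower, with a median log2 ratio of -0.04. The class was spread over 10 clusters, which the libraries filled unequally: the one with most chronic cells held 853 chronic and 224 acute cells, the one with most acute cells 397 and 1233, and another 96 and 1115. Cxcl9 was at 367 CPM in the chronic and 60.7 in the acute library, 6.05-fold (5.60 to 6.54), and the other 4 libraries held 4.44 to 144 CPM. In thinned cells 7.32% of chronic and 1.63% of acute cells had Cxcl9, against 1.12% and 0.535% of neutrophil-like cells. Over 4 hashtags of the chronic library Cxcl9 ranged from 121 to 478 CPM and over 2 of the acute library from 31.3 to 88.1, so the sets did not overlap.

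Of 11 MHC class II genes in the class, 9 were higher and 0 lower (median log2 ratio 0.86 beside -0.04 over all genes), and of the 8 held by the class itself 7 were higher. H2-Eb1 was at 2351 and 1058 CPM (2.22-fold, 2.18 to 2.27), H2-Ab1 at 2882 and 1561 CPM (1.85-fold, 1.81 to 1.88) and H2-DMa at 249 and 122 CPM (2.04-fold, 1.92 to 2.17). Over hashtags H2-Ab1 was 2128 to 3758 CPM in the chronic and 1488 to 2619 in the acute library, so these sets overlapped. Of 24 interferon-gamma response genes, 12 were higher and 2 lower, with Psmb8 at 230 and 116 CPM on one side and Cxcl10 at 345 and 559 CPM and Nos2, the inducible nitric oxide synthase, at 101 and 160 CPM on the other. Of 38 interferon-stimulated genes, which respond to type I interferon, 2 were higher and 8 lower, among the higher Ifi27l2a at 1087 and 681 CPM, and among the lower Rsad2 at 157 and 333 CPM and Ifit1 at 44.8 and 103 CPM. The class II genes and Cxcl9 were thus higher in the chronic library while Cxcl10, Rsad2 and Ifit1 were lower.

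Procr, the endothelial protein C receptor, was at 269 and 103 CPM (2.60-fold, 2.44 to 2.78) and Slamf8, a receptor of the SLAM family, at 80.4 and 27.4 CPM (2.94-fold, 2.59 to 3.34). Tnf was at 527 and 1624 CPM, 3.08-fold higher in the acute library (3.0 to 3.17), and Tnfsf9 at 134 and 411 CPM (3.07-fold, 2.90 to 3.26). Within the chronic library, however, Tnf was at 1525 CPM with hashtag 7 and 281 to 413 with the other 3, while acute sets held 1173 and 1613 CPM, so 1 chronic set lay at the level of the acute library. Ckap2l, a spindle protein, was at 21.0 and 78.5 CPM (3.74-fold, 3.25 to 4.32). Il10 was at 313 and 756 CPM (2.41-fold), Ccl2, the main monocyte chemokine, at 450 and 1106 CPM (2.46-fold), Ccl3 at 805 and 1543 CPM and Il1b at 3910 and 6715 CPM (1.72-fold). Of 36 NF-kB inflammatory genes 0 were higher and 23 lower, and of the 28 held by the class 0 were higher and 15 lower, Tnfaip3 among them at 408 and 1072 CPM.

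Of 25 antioxidant genes, 7 were higher and 2 lower in macrophage or monocyte-like cells. Gclm, a subunit of the enzyme that starts glutathione synthesis, was at 156 and 77.0 CPM (2.03-fold, 1.87 to 2.20) and Srxn1, which restores peroxiredoxins, at 355 and 196 CPM (1.81-fold, 1.72 to 1.90). Blvrb was at 185 and 79.4 CPM (2.33-fold, 2.16 to 2.52) and Ftl1 at 7645 and 4714 CPM (1.62-fold), while Fth1 was at 28631 and 25635 CPM (1.12-fold). The heat shock genes Hspe1 at 279 and 125 CPM and Ubb at 1208 and 713 CPM were higher, as in T cell-like cells.

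**Figure D4:**
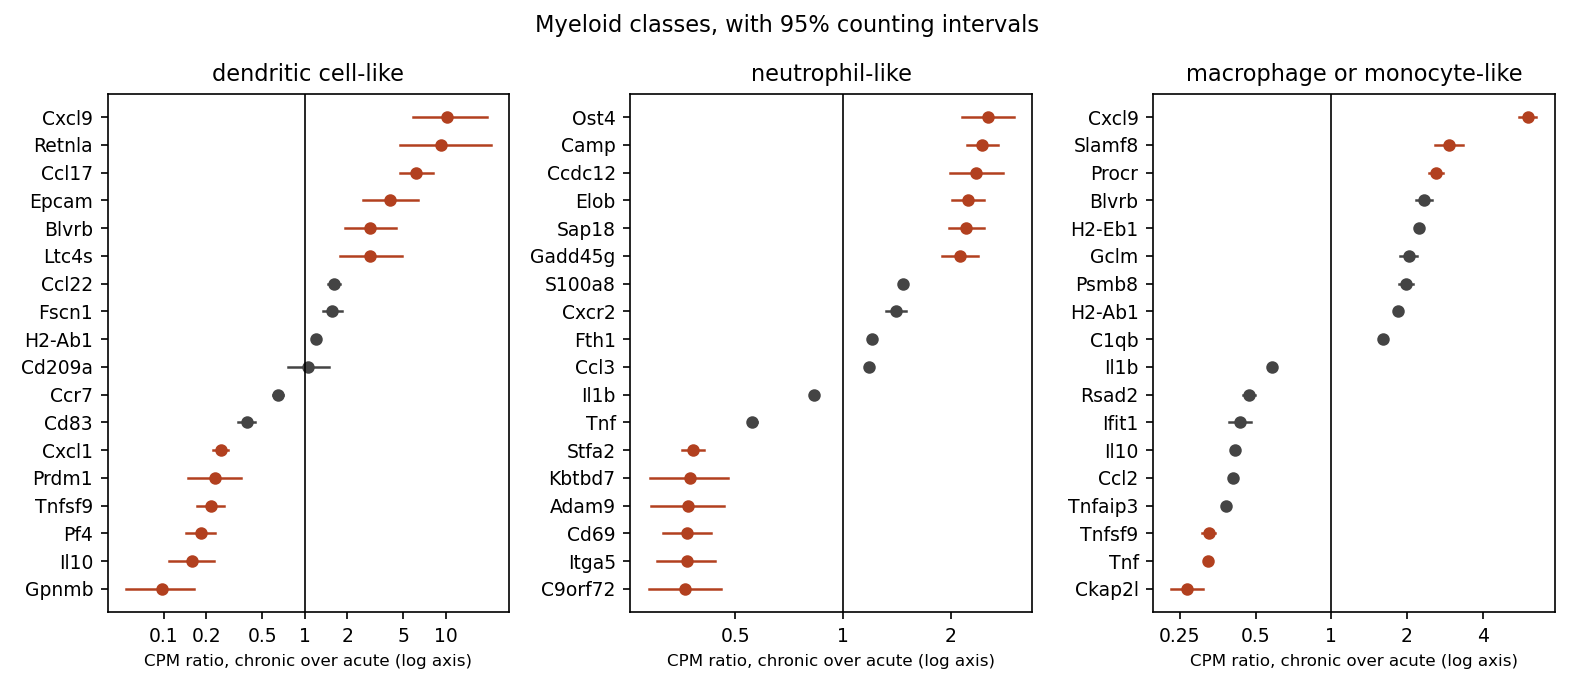
Ratio of CPM, chronic over acute (log axis), with 95% counting intervals, in dendritic cells (left), neutrophils (middle) and macrophages or monocytes (right). Red points are the genes with the highest and lowest ratios by rule and dark points other genes of the text. Cxcl9 at 10.2 in dendritic cell-like and 6.05 in macrophage or monocyte-like cells heads its class, and Tnf lies below 1 at 0.557 in neutrophil-like and 0.324 in macrophage or monocyte-like cells.

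Fibroblast-like cells, 299 in the chronic and 1519 in the acute library, had 699 of 9952 measured genes (7.02%) at least 1.5-fold higher and 1079 (10.8%) lower in the chronic library. Ccl19, a chemokine that attracts T cells and dendritic cells, was at 108 CPM in the chronic and 19.3 in the acute library, 5.60-fold (4.56 to 6.89). Iigp1, an interferon-induced GTPase, was at 593 and 127 CPM (4.67-fold, 4.30 to 5.07) and Cxcl9 at 281 and 101 CPM (2.79-fold, 2.52 to 3.09). Itih5, which binds hyaluronan, was at 131 and 38.4 CPM. Lower in the chronic library were Ptn, the growth factor pleiotrophin, at 18.8 and 129 CPM (6.88-fold higher in the acute library, 5.20 to 9.28), the imprinted RNA H19 at 39.8 and 184 CPM (4.62-fold, 3.8 to 5.66) and Lmcd1 at 10.9 and 60.9 CPM.

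Keratinocyte-like cells, 373 and 307, had 604 of 8274 genes (7.3%) higher and 1266 (15.3%) lower in the chronic library. Csf3 was at 36.3 and 162 CPM (4.45-fold higher in the acute library, 3.62 to 5.50), Il19, a cytokine of inflamed epidermis, at 53.2 and 203 CPM (3.82-fold, 3.21 to 4.56), and Ereg, the growth factor epiregulin, at 25.5 and 89.0 CPM (3.49-fold, 2.69 to 4.54). The highest ratios were the hair genes S100a3, Krt71 and Krt28, of whose chronic UMIs 1 cell held 79.6%, 55.6% and 32.4%. Endothelial-like cells, 147 and 431, had 405 of 5101 genes (7.94%) higher and 769 (15.1%) lower. Bmp2, a morphogen, was at 23.4 and 114 CPM there (4.88-fold higher in the acute library, 2.84 to 8.99), while 1 chronic cell held 97.7% of the UMIs of Mmp12 and 100% of those of Camp and Ngp, so these 3 describe single cells.

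Some genes lay on the same side in all 7 classes with gene counts. Ubb was at least 1.5-fold higher in the chronic library in all 7, with ratios from 1.68 in neutrophil-like to 2.08 in keratinocyte-like cells, and Cxcl9 in all 7, with ratios from 1.54 to 10.2. Tnf, Tnfaip3, Birc3, Il10, Csf3 and Tnfsf9 were at least 1.5-fold lower in all 7. For Tnf the ratio ran from 0.0981 in endothelial-like to 0.557 in neutrophil-like cells, so it was lowest in a class that makes little Tnf of its own. The classes share their library, its handling and its free RNA, so 7 classes are not 7 observations.

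**Figure D5:**
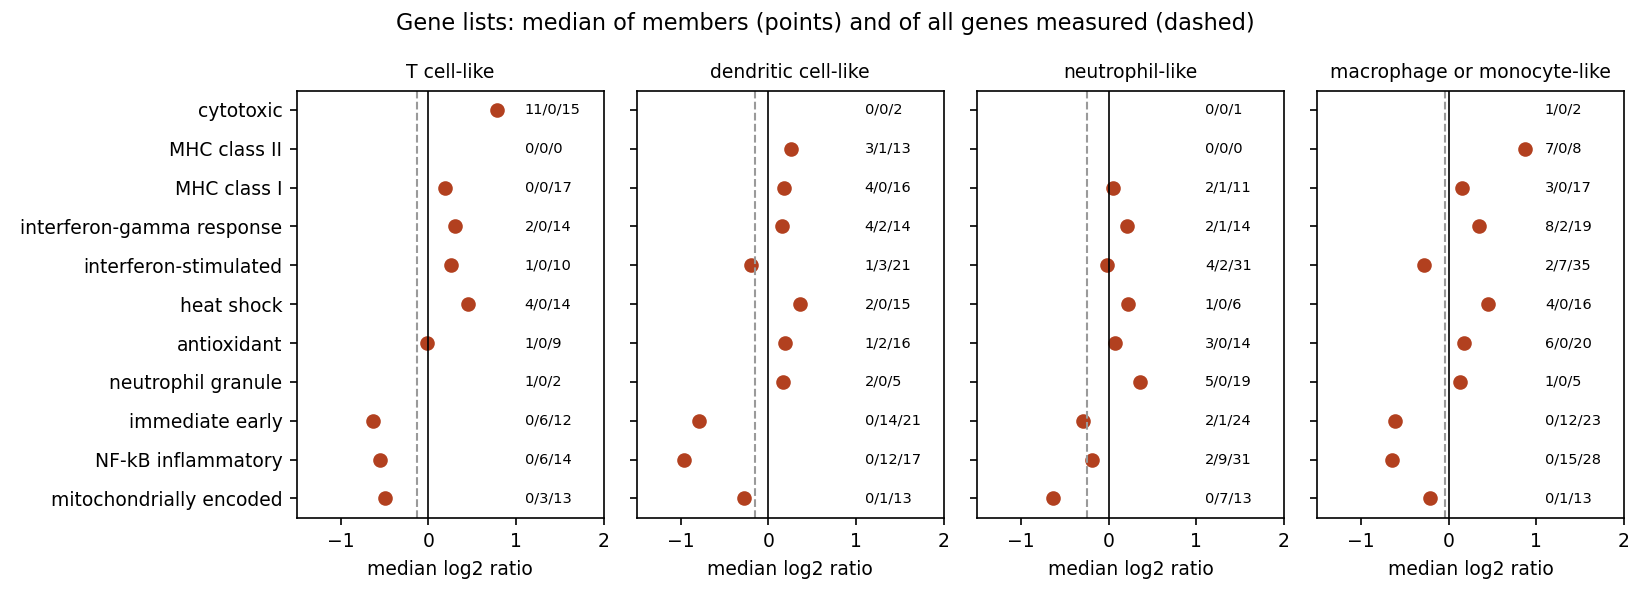
Median log2 CPM ratio, chronic over acute, of 11 gene lists in 4 classes, over members that a class holds at 25% or more of the highest class. Points are medians of lists with at least 3 such members, the dashed line is the median of all genes of the class, and the numbers are members higher, lower and measured. Cytotoxic genes in T cell-like cells (11 of 15 higher) and MHC class II genes in macrophage or monocyte-like cells (7 of 8) lie to the right, and NF-kB inflammatory genes to the left in T cell-like, dendritic cell-like and macrophage or monocyte-like cells.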

How the data were processed

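Deposited count matrices of 6 droplet libraries held whole-number counts of UMIs per mouse gene and cell barcode, made with Cell Ranger 6.0.0 per the file headers. The submitters' processing notes also name Seurat 5.0.1 and the pig assembly Sscrofa11.1, while the deposited rows are 32285 mouse genes. The alignment settings are not given in the sources used here. Hashtag rows were left out of gene totals, cells were filtered as stated in the report, and the cells with the highest Scrublet scores were removed, 0.8% per 1000 barcodes (7.78% of chronic and 20.0% of acute cells), because Scrublet's own threshold called 1 and 0 cells. The chronic and acute libraries were scaled to 10000 UMIs a cell, log-transformed and clustered together by Leiden on 30 components of 2000 variable genes at resolution 1, with scanpy 1.11.5 in Python 3.11.15, and lymphoid and mononuclear cells were clustered again. Clusters were named from fixed markers, and cells of the other 4 libraries took the class of their nearest neighbours in this space. Clusters with markers of several classes were set aside as mixed and not compared. Mixed myeloid clusters held 3.18% of chronic and 8.59% of acute kept cells, and mixed lymphoid clusters 2.26% and 1.35%.

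Counts were summed per library and class and given as CPM. Ratios have exact 95% conditional binomial intervals, shares have exact binomial ones, and both cover counting error only. A gene was measured with at least 50 UMIs over both sums and counted as higher or lower past 1.5-fold. A T cell, dendritic or neutrophil gene was named if among the 6 highest or 6 lowest ratios (3 in other classes) with at least 100 UMIs, 50 CPM in the higher library, an interval that leaves out 1 and 25% of the highest class's level, or as an extreme member of a list, or from a fixed list of lineage and treatment genes. The members and the 34 gene lists and 26 marker lists were chosen with earlier results of these data known. The computation of ratios and intervals was tested on simulated sums with counting error alone. That check does not bear on spread between cells, animals or libraries.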

Additional observations from a re-analysis of the deposited data

How the results depend on the processing

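No paired analysis was possible because each label has 1 library. The chronic minus acute difference in the T cell-like share, 9.94 percentage points, was 15.7 with at least 1000 UMIs and at most 10% mt- UMIs, 16.1 with cells thinned to 1000 UMIs, 8.24 with each library clustered alone and 13.6 with neutrophils left out of the total. The dendritic difference of 0.347 points turned to -0.307 with the stricter limits and -0.681 in thinned cells. The neutrophil difference of 0.265 points turned to -1.15 without doublet removal, -1.46 with Scrublet's own threshold, -2.59 with libraries clustered alone and -0.920 as a share of leukocytes, and was 10.8 with the stricter limits and 10.8 in thinned cells. The NK cell-like class was not found when cells with more than 1 hashtag were removed, at resolution 0.5, in thinned cells, or in the acute library clustered alone, so these gave no value. The genes past the bound, 1765 in T cell-like, 1238 in dendritic cell-like and 2072 in neutrophil-like cells, were 599, 302 and 797 at 2-fold, 2794, 2216 and 3372 with at least 20 UMIs, 683, 401 and 800 with at least 200 UMIs, and 1171, 482 and 1327 in thinned cells. Lists with most measured members past the bound one way numbered 62 over all classes, and 21 when only members at 25% or more of the highest class were counted, an alternative chosen after seeing the data. Over 145 gene and class pairs of the text, 1008 alternative values gave 654 within the first value's interval and 347 outside it. A change of side was counted only for pairs first past the 1.5-fold bound, so the 347 can hold changes of side in other pairs. The other 7 values changed side in pairs past the bound. The last are log2 ratios for Gzma in T cell-like cells (-0.92 with libraries clustered alone, -0.65 thinned), Cxcl10 in dendritic cell-like cells (0.20 clustered alone), Camp in neutrophil-like cells (-0.73 thinned), and in endothelial-like cells Pdk4 (0.12 thinned) and Mmp12 (-0.87 thinned, -2.12 without the cell with most UMIs). The cause was not tested. Depth limits what can be read, since the acute library had 49408533 UMIs over more cells and a lower median per cell.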
